A study of Homo sapiens with 8 samples.

Results

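The guides described here direct Cas9 to the first 300 residues of SETD1A, the N-terminal end of the protein, which holds its RNA recognition motif. They are the guides named KMT2F, a synonym of SETD1A in RefSeq, whose name carries 1 position between 1 and 900. That number was read as a nucleotide of the coding sequence, 3 to a residue, because the numbers run from 4 to 5124 along the gene; the table does not define it, and every residue below rests on this reading. The rule took 127 guides at 121 positions, of 628 guides to SETD1A and 5995 guides in all. Each of the 127 had at least 30 reads at day 0, so none was lost to the filter on low counts. The pool was carried by KPL-1 cells, a line from human breast cancer with doxycycline-inducible Cas9 (iCas9), and was counted in 1 library at day 14, labelled as knockout of functional domains, and in 1 library at day 0 of doxycycline, labelled WT. RNA levels were taken from 3 libraries of the same iCas9 line with an empty guide vector (sgEmpty), labelled WT, at day 7. The study's design names the pool as a tiling screen for functional domains of SETD1A.

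SETD1A is the catalytic subunit of a complex that methylates histone H3 at active promoters, and its catalytic SET domain lies at the far, C-terminal end. The RNA recognition motif near the N-terminus is a fold of the kind that many RNA-binding proteins carry, and it is known to bind WDR82, a subunit that joins the complex to transcribing RNA polymerase II. A Cas9 cut is repaired with small insertions or deletions. Those that shift the reading frame end the protein early, while in-frame ones leave a protein altered at the cut, so tiling screens read the loss of guides along a gene as a map of where the protein tolerates change.

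The day 14 library held 10255022 reads and the day 0 library 10145466 reads. Counts of the 127 guides ran from 0 to 7761 reads at day 14 (median 933) and from 90 to 5409 reads at day 0 (median 1503). With 1 library per day there are no replicates. No test and no p-value is therefore given for any change, and intervals cover either counting error or the spread between guides, never the spread between cultures. The sources used here do not say whether reads carried molecular identifiers. Without them, counting intervals are lower limits of the error. The 3 sgEmpty libraries listed SETD1A at 17.5, 17.5 and 18.1 TPM and WDR82 at 46.1, 46.1 and 45.1 TPM (replicates 1 to 3; TPM is transcript abundance scaled per length and to a fixed total). Of the luminal markers, ESR1 was listed there at 38.5 to 40.5, GATA3 at 632 to 676 and KRT8 at 6059 to 6504 TPM. The basal keratins KRT5 and KRT14 were listed at 0 in each library and the leukocyte marker PTPRC at no more than 0.0725 TPM.

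Most guides to the N-terminal end were less abundant at day 14 than at day 0, relative to control guides. Change is given here on the log2 scale, as day 14 over day 0 after adding 1 to each guide's CPM (its reads scaled to 1000000 per library), less the median of 200 guides whose names start with HGLibA. That prefix belongs to a genome-wide human library, and their reading as non-targeting guides is background knowledge, not a statement of the table. The median change of the 127 guides was -1.55 log2, with an exact 95% order-statistic interval over guides of -1.82 to -1.23. The middle of the distribution was wide, with quartiles at -2.18 and -0.48, and the guides seen at day 14 ranged from -4.42 to 0.94 (SD over all guides 1.11). KMT2F_14 had 0 reads at day 14. At the limit of 3 reads that such a count allows, with its day 0 count taken as exact, its change was -5.66 log2 or lower. The upper end of its 95% counting interval, which takes in the error of both counts, was -5.34. Control guides had an SD of 0.46, with their 5th and 95th percentiles at -0.74 and 0.77.

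At or below -1 log2 stood 84 of the 127 guides, or 66.1% (exact Clopper-Pearson 95% interval 57.2% to 74.3%), where 46.7% of all 5991 guides with enough reads and 2.0% of HGLibA guides did. At or below -2 log2 stood 39 guides, or 30.7% (22.8% to 39.5%), against 16.6% of all guides and 0.0% of HGLibA guides. Most of the pool targets other histone methyltransferase genes, and the guides to KMT2D gave 65.7% and 28.9% at these thresholds, so the N-terminal SETD1A shares stand close to those. Below the 5th percentile of the control guides were 90 of the 127, against 56.4% of all guides, and 87 of them had a counting interval that also lay wholly below it. Between the 5th and 95th percentile of the controls were 36 guides, or 28.3%, against 42.7% of all guides. None of the 127 reached 1 log2, which 0.351% of all guides did.

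The size of the change depended on the centring. The 200 HGLibA guides took 5.489% of reads at day 14 and 3.168% at day 0, and the 127 SETD1A guides took 1.706% at day 14 and 2.177% at day 0. Scaled to total reads alone, the median of the 127 was -0.81 log2 and 52 stood at or below -1. The pool also holds guides to AAVS1, a site commonly cut as a neutral control. These 5 guides changed by -1.46, -1.30, -1.01, -0.74 and 0.18 log2, so 4 of them lay at or below the 5th percentile of the HGLibA guides. Centring on these 5 guides alone was a choice made after seeing the data. It gave a median of -0.54 log2 for the 127, with 38 at or below -1. The share of all guides at or below -1, 46.7%, holds for HGLibA centring and was not computed for the other centrings. Whether these counts exceed that of the pool is therefore not shown. The part of cutting itself in the result was not tested.

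Along the N-terminal end, the first residues had the lowest 50-residue median. The 21 guides of residues 1 to 50 had a median of -1.83 log2 (95% interval -2.37 to -1.32), and 18 of them stood at or below -1. On this grid it was the lowest of 35 windows of 50 residues along SETD1A, a rank that depends on the grid: of 63 windows of 25 residues, residues 801 to 825 were the lowest (-2.31), residues 1 to 25 ranked 4 and residues 26 to 50 ranked 28 (-1.32). The next windows gave -1.42 for 20 guides at residues 51 to 100 (-2.18 to -0.90), -1.35 for 26 at residues 101 to 150 (-2.02 to -1.17) and -1.72 for 19 at residues 151 to 200 (-2.22 to -0.46). Residues 201 to 250 and 251 to 300 had the weakest medians of the region, -1.04 for 18 guides (-1.86 to -0.17) and -1.02 for 23 guides (-2.03 to -0.47). All 6 intervals overlap. In blocks of 100 residues, a division chosen after seeing the data, the medians were -1.69, -1.36 and -1.02 log2 from the first to the last. At or below -1 stood 31 of 41, 31 of 45 and 22 of 41 guides. These are 75.6%, 68.9% and 53.7%, against 46.7% of all guides. The exact interval of the last block, 37.4% to 69.3%, takes in the share of all guides. The guides at or below -2 were spread over all 3 blocks, with 14, 15 and 10 of them from the first to the last.

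Windows of 25 residues gave a wider range of medians, over fewer guides each. All 10 guides of residues 1 to 25 and all 9 of residues 101 to 125 stood at or below -1, with medians of -1.93 (95% interval -3.37 to -1.69) and -2.14 log2 (-2.98 to -1.58). Of 63 such windows along SETD1A, 4 had every guide at or below -1, and these are 2 of them. Between them, residues 76 to 100 had a median of -1.75 with 10 of 12 guides at or below -1, while residues 51 to 75 had -0.68 with 3 of 8 (-4.02 to 0.94). The least changed window was that of residues 226 to 250, with a median of -0.17 (-1.86 to -0.01, which overlaps the intervals of residues 1 to 25 and 101 to 125) and 3 of 9 guides at or below -1, followed by residues 51 to 75 and by residues 251 to 275 (-0.73, 5 of 12). Windows of 50 residues moved by 25 put these together. Residues 76 to 125 gave -2.10 log2 for 21 guides (-2.64 to -1.40), with 19 (90.5%) at or below -1. Residues 226 to 275 gave -0.49 for 21 guides (-1.86 to -0.13), with 8 (38.1%). The share of all guides at or below -1 was 46.7%. The windows of 50 residues counted from residue 1 divide both stretches, so the range of medians over the region depends on where the windows start.

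Guides at or below -1 also followed one another along the sequence, where 66.1% of guides met that threshold in any case. The longest unbroken stretch of the region held 15 successive guides at or below -1, from position 277 to position 390 (residues 93 to 130), with a median of -2.10 and a range of -4.42 to -1.17 log2. The second held the first 10 guides of the gene, positions 4 to 67 (residues 2 to 23), with a median of -1.93. Stretches of 8 guides lay at positions 229 to 247 (residues 77 to 83, median -2.07), 433 to 473 (residues 145 to 158, median -1.80) and 583 to 617 (residues 195 to 206, median -1.83). At a shared position the lower guide was counted first. The stretch to position 617 thus takes in the lower guide there, at -1.56, and is broken by the other, at -0.20, so its length depends on that order. Counted in this order, all of SETD1A had 9 stretches of 8 or more guides. Of these, 5 lay in the first 300 residues, which held 127 of the 628 guides, and they include the stretch to position 617. The longest, of 16 guides, lay outside at residues 477 to 522. These stretches were sought after the values were seen, and whether they are longer than the share of such guides gives was not tested.

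The guides nearest the start codon were all low but differed in size. The first guide, KMT2F_4 (residue 2), had 1113 reads at day 14 and 2553 at day 0, a change of -1.95 log2 (counting interval -2.06 to -1.85). KMT2F_12 (residue 4) had 147 reads at day 14 and 757 at day 0 (-3.04). KMT2F_14 (residue 5) was not seen at day 14 and had 90 reads at day 0. Set at the limit that a count of 0 allows, 3 reads in the library, it was at least 50.7-fold lower relative to controls. That figure takes the 90 reads as exact, and the counting interval of the guide reached up to -5.34 log2. It was 1 of 18 guides of the whole table with 0 reads at day 14, and none of the HGLibA guides was at 0. Farther along, the 3 guides KMT2F_40, KMT2F_41 and KMT2F_42 at residue 14 lay close together, at -1.60, -1.72 and -1.83 log2. KMT2F_67 (residue 23) had 254 reads at day 14 and 1609 at day 0, or -3.37 log2. The run ended at KMT2F_79 (residue 27), which had 2428 reads at day 14 and 1251 at day 0, a change of 0.19 log2 and the sixth highest of the region.

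From there to residue 75, low guides stood beside guides near or above the control median. A pair of guides shares the name KMT2F_125 (residue 42). The lower had 114 reads at day 14 and 1202 at day 0 (-4.04 log2), and the other had 265 and 885 reads at the same days (-2.46). KMT2F_151 (residue 51) was the highest of all 127, with 623 reads at day 14 and 185 at day 0, a change of 0.94 log2 (counting interval 0.76 to 1.24). Its day 0 count was the second lowest of the region after that of KMT2F_14. The successive guides KMT2F_191, KMT2F_192 and KMT2F_193 (residues 64 and 65) differed by 4.17 log2 from lowest to highest: 208 reads at day 14 and 2083 at day 0 for the first (-4.02), 2564 and 4090 for the next (-1.43), and 3805 and 2027 for the last (0.15).

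Of the 10 lowest guides of the region, KMT2F_313, KMT2F_234 and KMT2F_239 lay in residues 76 to 125. KMT2F_12, KMT2F_14, KMT2F_67 and the lower KMT2F_125 lay in residues 1 to 50, so such guides were not particular to residues 76 to 125. Each of these 50-residue windows held 21 guides. KMT2F_234 (residue 78) had 97 reads at day 14 and 859 at day 0 (-3.78 log2), and KMT2F_239 (residue 80) had 128 at day 14 and 713 at day 0 (-3.14). KMT2F_313 (residue 105) was the lowest of the 126 guides seen at day 14, with 85 reads at day 14 and 1193 at day 0, a change of -4.42 log2 (counting interval -4.90 to -4.25), which is 21.3-fold lower than the control median. Its neighbour KMT2F_312 stood at -2.21. The pair named KMT2F_328 (residue 110) stood at -2.98 and -2.10, and the pair named KMT2F_347 (residue 116) at -2.14 and -1.58, so both guides of each pair were low. The exceptions in this stretch were KMT2F_248 (residue 83), with 1757 reads at day 14 and 1012 at day 0 (0.03 log2), and KMT2F_260 (residue 87), at -0.90.

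Residues 126 to 200 were mixed. The 4 guides at successive positions KMT2F_389 to KMT2F_392 (residues 130 and 131) changed by -2.36, -1.17, 0.06 and -0.06 log2. KMT2F_413 (residue 138) had 6463 reads at day 14 and 3234 at day 0, or 0.24 log2, and KMT2F_418 (residue 140) stood at 0.05 beside KMT2F_419 at -2.01. No guide between residues 151 and 200 was above the control median: the highest of those 19 changed by -0.17 log2. KMT2F_505 and KMT2F_506, 1 nucleotide apart at residue 169, had 154 and 1876 reads at day 14 and 733 and 1385 at day 0, changes of -2.93 and -0.32 log2. The 5 guides KMT2F_581 to KMT2F_585 (residues 194 and 195) ran from -2.02 to -0.66.

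Residues 201 to 300 held low and control-like guides side by side. Within the 5th to 95th percentile of the controls were 16 of 41 guides there (exact interval 24.2% to 55.5%), 13 of 45 at residues 101 to 200 (16.4% to 44.3%) and 7 of 41 at residues 1 to 100 (7.2% to 32.1%), against the 42.7% of all guides; these intervals overlap. The share was already 36.8% at residues 151 to 200, and it was 27.3% at residues 276 to 300. KMT2F_714 (residue 238) had 5437 reads at day 14 and 2604 at day 0 (0.30 log2), although KMT2F_713, 1 nucleotide before it, stood at -1.55. KMT2F_754 (residue 252) had 4102 reads at day 14 and 1706 at day 0 (0.50), and KMT2F_776 (residue 259) 4670 and 1945 (0.50). These ranked 4, 2 and 3 from the highest of the region, whose highest guide, KMT2F_151, lay at residue 51. In the blocks of 100 residues, from the first to the last, 5, 3 and 3 guides were above the control median. Such guides were thus not gathered in residues 201 to 300. Low guides occurred here too: KMT2F_772 (residue 258) had 79 reads at day 14 and 550 at day 0 (-3.41 log2), while KMT2F_773 and KMT2F_774 on the next nucleotides stood at -0.98 and -0.49. Near the end of the region, KMT2F_886 (residue 296) had 404 reads at day 14 and 1880 at day 0 (-2.95 log2), KMT2F_889 (residue 297) had 4393 and 2647 reads (-0.03), and KMT2F_897 (residue 299) had 333 and 1339 reads (-2.73). The control-like KMT2F_889 thus stood between low guides. The last guide, KMT2F_899 (residue 300), had 488 reads at day 14 and 1090 at day 0 (-1.90). On either side of the threshold of -1 stood KMT2F_864 and KMT2F_667 (-1.02 and -1.006) and, just above it, KMT2F_698 and KMT2F_773 (-0.998 and -0.982).

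Differences between guides at the same place were as large as those between distant ones. Of 6 positions with a pair of guides, the largest gap was at KMT2F_844 (residue 282), where one guide had 313 reads at day 14 and 1693 at day 0 (-3.15 log2) and the other 2208 and 1685 (-0.37). At KMT2F_617 (residue 206) the changes were -1.56 and -0.20, and at KMT2F_433 (residue 145) -1.88 and -1.22. Over these 6 pairs the difference ran from 0.56 to 2.79, with a median of 1.12 log2. Over 77 pairs at most 3 nucleotides apart the median difference was 1.10 log2, and over 7038 pairs at least 60 nucleotides apart it was also 1.10; pairs of HGLibA guides differed by a median of 0.40. Guides this close target overlapping sequence, or the opposite strand of it, and are not independent, and their sequences were not used here. The median counting interval of a single guide was 0.24 log2 wide, so most of this spread is larger than counting error. Nearness along the coding sequence was thus not accompanied by a smaller difference.

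The guides were also split by features other than place. By position within the codon reading, the 25 guides whose number is divisible by 3 had a median of -1.32 log2, the 45 with a remainder of 1 had -1.72 and the 57 with a remainder of 2 had -1.56, with 64.0%, 68.9% and 64.9% at or below -1. The 95% intervals of these medians, -1.83 to -0.80, -2.10 to -1.07 and -1.86 to -1.16, overlap. Across the 127 guides, the change and the log2 day 0 reads had a Pearson correlation of 0.08 and a Spearman correlation of 0.07; the day 0 reads enter both measures, and the guides share both libraries. The guides covered the region densely, with a median step of 5 nucleotides and the widest gaps of 33, 32 and 31 nucleotides after positions 279, 519 and 198.

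Set beside the rest of SETD1A, the N-terminal guides had the lower median: -1.55 log2 for the 127, against -1.18 (95% interval -1.27 to -1.07) for the 501 guides after residue 300. With guides that share a name or position left out, the difference of -0.37 log2 became -0.23. The share at or below -1 was 66.1% in the first 300 residues and 58.1% after them (53.6% to 62.4%), and the share at or below -2 was 30.7% and 16.4% (13.2% to 19.9%). The pooled share after residue 300 joins unlike parts: at or below -1 stood 65.7% of guides after residue 300 to 700, 54.8% to 900, 49.0% to 1400 and 63.6% beyond. Below the 5th percentile of the controls were 70.9% of the N-terminal guides, under the 74.5% of residues after 300 to 700 and the 72.9% beyond 1400. Split by position, the later parts had medians of -1.36 (137 guides, residues after 300 to 700), -1.20 (93 guides, to 900, around the FLOS domain, which is known to bind cyclin K), -0.95 (153 guides, to 1400) and -1.29 (118 guides, to the end, with the SET domain). Their 95% intervals were, in this order, -1.49 to -1.14, -1.41 to -0.89, -1.14 to -0.63 and -1.46 to -1.06. The interval of the first 300 residues, -1.82 to -1.23, overlapped all of these but that of residues after 900 to 1400. The spread was also wider in the first 300 residues, with an SD over guides of 1.11 log2 against 0.75 to 0.97 in those 4 parts. With 1 library a day, none of these differences was tested.

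In SETD1B, the paralog whose guides are named KMT2G, the same stretch of residues 1 to 300 changed less. Its 93 guides had a median of -0.31 log2 (-0.53 to -0.22), 10 of them (10.8%) stood at or below -1 and 1 at or below -2, and the lowest was at -2.66. At the other end, the 25 guides to PCNA, POLR2A, POLR2L, RPA3 and SF3B3, genes that dividing cells need, had a median of -3.63 log2 (-4.03 to -2.90) with 24 at or below -1. The 127 N-terminal SETD1A guides lay between these sets by their median, and their 10 lowest stood at -3.04 log2 or less, where the quartiles of the essential gene guides were -4.03 and -2.84.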

How the data were processed

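For each guide the authors deposited an unnormalized read count at both days; amplification and counting of guides are not given in the sources used here. Its row of column totals equalled the sum of the 5995 guides and was left out. The RNA table held TPM, a length-scaled expression signal deposited by the authors; its unnamed total row was left out, and its depth is unknown. RSEM 1.3.1, STAR 2.6.0c, bcl2fastq 2.20.0 and hg19 stand in the submitters' processing notes, with no roles. No coordinates and no sequences are printed, since the files used here pair none with the guides, and the bounds of the RNA recognition motif were not determined, so no guide was assigned to it.

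Changes were computed with Python 3.11.15 (scipy 1.17.1) for guides with at least 30 day 0 reads, 5991 in all, with 1 CPM added. Counting intervals of single guides came from the reads without the added CPM (exact Clopper-Pearson, 95%). The calculation was tested on counts simulated from set changes, which checks the code and not the error between cultures. Alternatives used edgeR 4.0.16 and DESeq2 1.42.0 in R 4.3.3, for scaling factors alone. Windows needed 3 guides. Named guides were the 10 lowest, the 6 highest, the 2 nearest each side of -1, the first, the last and those sharing a position; other guides named were chosen after their values were seen. The members and lists were chosen with earlier results of these data known. The sgSETD1A libraries were not analysed here, and a small set of other control guides is not reported here.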

Additional observations from a re-analysis of the deposited data

How the results depend on the processing

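The median of the 127 guides stayed negative in every alternative run and moved beyond its interval with the centring alone: -0.81 log2 with total reads only, -0.63 centred on all guides, -0.66 with TMM factors, -0.64 with median-of-ratios factors and -0.54 centred on the 5 AAVS1 guides. The number at or below -1 was 52, 45, 47, 45 and 38 of the 127 under these centrings. The share of all guides at or below -1 was computed for HGLibA centring only, so these counts have no pool share beside them. The median of the SETD1A guides after residue 300 was -0.44, -0.26, -0.29, -0.27 and -0.17 under the same centrings. Centred on AAVS1 guides, KMT2F_667, at -1.006 log2 against HGLibA guides, stood at 0.0084. Centring moves members and controls together, so the difference between the 127 guides and HGLibA guides was -1.55 under all 5. The range of window medians over the region was 0.81 log2, against 1.97 with windows of 25 residues and 1.62 with windows shifted by 25. Pseudocounts of 0.1 and 10, minima of 0 and 300 reads, last residues of 250 and 350, 3 reads in place of 0, the mean over guides, and leaving out guides that share a name or position gave -1.56 to -1.40. Medians by RNA recognition motif segment, and their alternatives, were not run because the segment's bounds were not determined. No paired analysis was possible because each day has 1 library and no result comes from a test. Counting intervals were narrow beside the spread between guides, and no replicate library measures the spread between cultures.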
